A study of Drosophila melanogaster with 4 samples.

Results

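The transcripts of 5 voltage-gated calcium channel subunit genes were followed through 4 libraries of poly-A RNA from Drosophila melanogaster larval heads: Ca-alpha1T, cac, Ca-alpha1D, Ca-beta and stj. They were chosen by symbol, with earlier results of these data known, and all 5 were found among the 11880 genes of the table. Each library was the only one of its group, so no difference has a replicate check and no test between conditions was made. All larvae carried tub>Gal80[ts], repo>Gal4 and UAS-myrRFP, which mark glial membranes with a red fluorescent protein once Gal4 is released. Eggs were laid over 3 days at 25 °C, and larvae then spent 5 days at 29 °C, where the temperature-sensitive repressor Gal80 no longer holds back the glial driver. Control larvae carried nothing more. Glioma larvae also carried UAS-dEGFR[L] and UAS-dp110[CAAX], which drive an epidermal growth factor receptor and a membrane-tethered PI3K catalytic subunit in glia. The last groups added UAS-Ca-alpha1T-RNAi or UAS-Slo-RNAi to the Glioma genotype. The constructs act in glia, whereas the RNA came from whole larval heads, in which fewer cells of a type and less RNA per cell cannot be told apart.

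Voltage-gated calcium channels open when a membrane depolarises and let calcium into the cell, where it triggers transmitter release, contraction and changes in gene activity. The pore is formed by an alpha-1 subunit. In Drosophila cac encodes the main presynaptic pore, Ca-alpha1D the L-type pore used by muscle and by neuronal cell bodies and dendrites, and Ca-alpha1T the T-type pore, which opens at weaker depolarisation. Ca-beta encodes the cytoplasmic beta subunit, which in mammals binds the pores of the high-voltage classes and helps them reach the membrane. The protein encoded by stj is an alpha-2-delta subunit, which brings cac channels to synaptic terminals.

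The genes lie on 3 chromosome arms in dm6 coordinates. Ca-alpha1T spans X:6104085-6192483 and cac X:11931280-11985087, both on the minus strand. On 2L are Ca-alpha1D at 2L:16165831-16190540 on the plus strand and Ca-beta at 2L:11156118-11203544 on the minus strand. The position of stj is 2R:13805794-13819571 on the plus strand. The annotation gives 5 transcripts for Ca-alpha1T, 18 for cac, 10 for Ca-alpha1D, 9 for Ca-beta and 3 for stj, and the longest encoded proteins have 3218, 2110, 2705, 844 and 1271 residues in the same order. An antisense RNA, asRNA:CR43806, overlaps Ca-alpha1D exons on the other strand and has no row of its own, and the sources used here do not state whether strand was used in counting, so reads of the pair cannot be told apart. Boh2 lies in a Ca-beta intron on the other strand, at 437 counts in Control, 334 in Glioma, 339 in the library labelled Ca-alpha1T RNAi and 372 with slo RNAi.

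Total counts ranged from 31594447 to 38826243, and a median gene had an authors' TPM (transcripts per 1000000, a value per length) between 11.1 and 16.0. Levels below are CPM, counts per 1000000 on library sizes scaled with TMM factors, unless TPM is named. Log2 ratios of 1 gene between libraries on the authors' TPM or FPKM, also per length, were taken after adding 1 to each value. That step draws the ratios of genes with low values towards 0 more than those of genes with higher values. Intervals are exact at 95% and cover counting error only. Both construct genes were above Control in the 3 glioma libraries, with Egfr at 182, 897, 962 and 651 CPM and Pi3K92E at 98.6, 903, 880 and 373 CPM for Control, Glioma, Ca-alpha1T RNAi and slo RNAi. A gene counted as detected in a pair of libraries when either held 10 or more counts. It was called higher or lower where it was detected, differed 2-fold or more and had a counting interval clear of equality. The rule describes these libraries and is not a test. The gene and marker lists below were also chosen with earlier results of these data known. Their counts beside the share of all genes are therefore description only. On total counts, without TMM factors, every log2 ratio moves by the same amount, −0.23 in Glioma against Control, 0.28 in Ca-alpha1T RNAi against Glioma and 0.05 in slo RNAi against Glioma. Against Control it is 0.05 in Ca-alpha1T RNAi and −0.18 in slo RNAi, and between the RNAi libraries 0.23, so values nearer to 0 than this can turn sign.

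Ca-alpha1T, the target of the first RNAi construct, was lowest in Control and differed little among the 3 glioma libraries. Its counts were 506 in Control, 673 in Glioma, 578 in the library labelled Ca-alpha1T RNAi and 536 with slo RNAi. These counts correspond to 12.9, 19.1, 16.6 and 17.8 CPM. The library labelled as its knockdown stood between Control and both other glioma libraries. The log2 ratio of that library against Glioma was −0.20 (−0.36 to −0.04), a 1.15-fold lower level, and the ratio against the slo RNAi library was −0.10 (−0.27 to 0.08). The first ratio turned to 0.078 on total counts, 0.050 with FPKM and 0.18 with TPM from the authors, where the median of all genes also moved, to 0.26, 0.22 and 0.40. Relative to the median of all genes it lay between −0.22 and −0.17 under the main setting and 8 alternatives. The slo RNAi library, which carries no construct against Ca-alpha1T, stood at −0.10 (−0.27 to 0.07) against Glioma, and at 0.0043 on TPM. In Glioma against Control the ratio was 0.56 (0.40 to 0.73), and 80.6% of the detected genes had a lower ratio.

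The other targeted gene, slo, which encodes a calcium-activated potassium channel, stood at 23.0 CPM in Control, 34.2 in Glioma, 33.2 in the library labelled Ca-alpha1T RNAi and 25.0 with slo RNAi.

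Ca-alpha1D was the 1 subunit gene called in Glioma against Control, and it had the widest range of the 5. Its counts were 1028 in Control, 2046 in Glioma, 1374 in the library labelled Ca-alpha1T RNAi and 1073 with slo RNAi, or 26.2, 57.9, 39.5 and 35.6 CPM. Glioma stood apart at the top and Control at the bottom, with the counting intervals of both RNAi libraries between them and overlapping slightly. The log2 ratio for Glioma against Control was 1.15 (1.04 to 1.26), a 2.21-fold higher level, where 10.1% of all detected genes were called higher. The call is lost on total counts, at 0.92, and with the deposited FPKM, at 0.76, or TPM, at 0.77, each with 1 added. On total counts the median of all genes stood at −0.22, and Ca-alpha1D lay 1.14 above it, as with TMM.

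**Figure D1:**
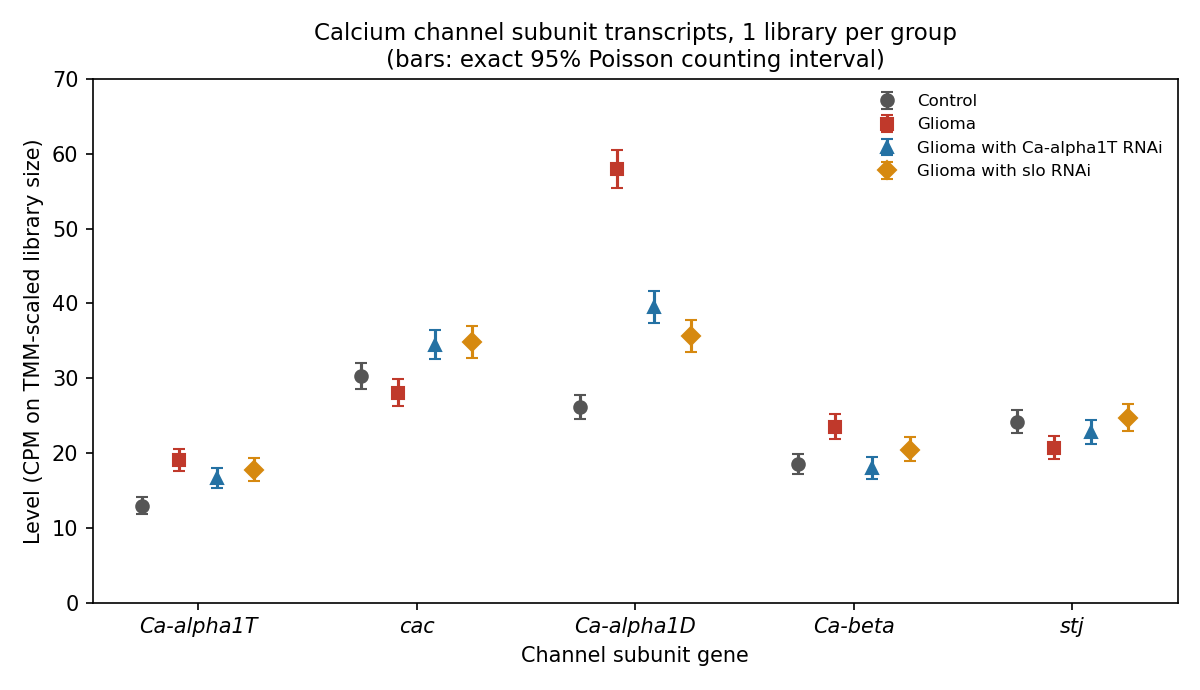
Level of each subunit gene (CPM on TMM-scaled library size, vertical axis) in the 4 libraries, with points for single libraries and bars for the exact 95% Poisson counting interval. Ca-alpha1D in Glioma, at 57.9 CPM, stands above every other point, while cac and stj have their lowest points in Glioma, at 28.0 and 20.7 CPM.

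In both RNAi libraries Ca-alpha1D was below Glioma and above Control. Against Glioma the log2 ratios were −0.55 (−0.65 to −0.45) in the library labelled Ca-alpha1T RNAi and −0.70 (−0.81 to −0.60) with slo RNAi, levels 1.47-fold and 1.63-fold lower, and neither was called. Against Control they were 0.59 (0.48 to 0.71) and 0.44 (0.32 to 0.57). Between the RNAi libraries the ratio was 0.15 (0.03 to 0.27), higher in the one labelled Ca-alpha1T RNAi. These comparisons share the Glioma or the Control library, so they are not independent of each other.

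The presynaptic pore gene cac had its lowest level in Glioma, with an interval against Control that included equality. It had 1189 counts in Control, 990 in Glioma, 1200 in the library labelled Ca-alpha1T RNAi and 1049 with slo RNAi, which are 30.3, 28.0, 34.5 and 34.8 CPM. Both RNAi libraries stood above Glioma, and the Control and Glioma intervals overlapped. The log2 ratio for Glioma against Control was −0.11 (−0.23 to 0.01). Against Glioma it was 0.30 (0.18 to 0.42) in the library labelled Ca-alpha1T RNAi and 0.31 (0.18 to 0.44) with slo RNAi, and against Control 0.19 (0.07 to 0.31) and 0.20 (0.08 to 0.32), the last of which turned to −0.050 on FPKM and −0.052 on TPM. The RNAi libraries differed from each other by −0.01 (−0.13 to 0.11). That ratio, and those of Ca-alpha1T, Ca-beta and stj between the RNAi libraries, turned positive on total counts, FPKM and TPM, where the median of all genes was 0.23, 0.21 and 0.32.

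Of the auxiliary subunit genes, Ca-beta was highest in Glioma. Its levels were 18.5 CPM in Control, 23.5 in Glioma, 17.9 in the library labelled Ca-alpha1T RNAi and 20.5 with slo RNAi, from 727, 830, 624 and 617 counts. The Glioma interval overlapped that of slo RNAi alone, and the other 3 libraries overlapped one another. The log2 ratio was 0.34 (0.20 to 0.49) for Glioma against Control. Against Glioma it was −0.39 (−0.54 to −0.24) in the library labelled Ca-alpha1T RNAi and −0.20 (−0.35 to −0.05) with slo RNAi. On TPM from the authors the first RNAi ratio turned to 0.13, where the median of all genes was 0.40.

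The alpha-2-delta gene stj was lowest in Glioma and had the narrowest range of the 5 genes. It had 948 counts in Control, 732 in Glioma, 791 in the library labelled Ca-alpha1T RNAi and 744 with slo RNAi, or 24.1, 20.7, 22.7 and 24.7 CPM. Glioma lay below Control and slo RNAi, with the library labelled Ca-alpha1T RNAi between and overlapping all of them. The log2 ratio was −0.22 (−0.36 to −0.08) for Glioma against Control. Against Glioma it was 0.13 (−0.01 to 0.28) in the library labelled Ca-alpha1T RNAi and 0.25 (0.10 to 0.40) with slo RNAi. Against Control both RNAi libraries had intervals that included equality, at −0.09 (−0.22 to 0.05) and 0.03 (−0.11 to 0.17). The slo RNAi value turned to −0.15 on total counts, −0.16 on FPKM and −0.17 on TPM, outside that interval, where the median of all genes was −0.18, −0.17 and −0.18. On TPM the other value turned to 0.077, where the median was 0.13.

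**Figure D2:**
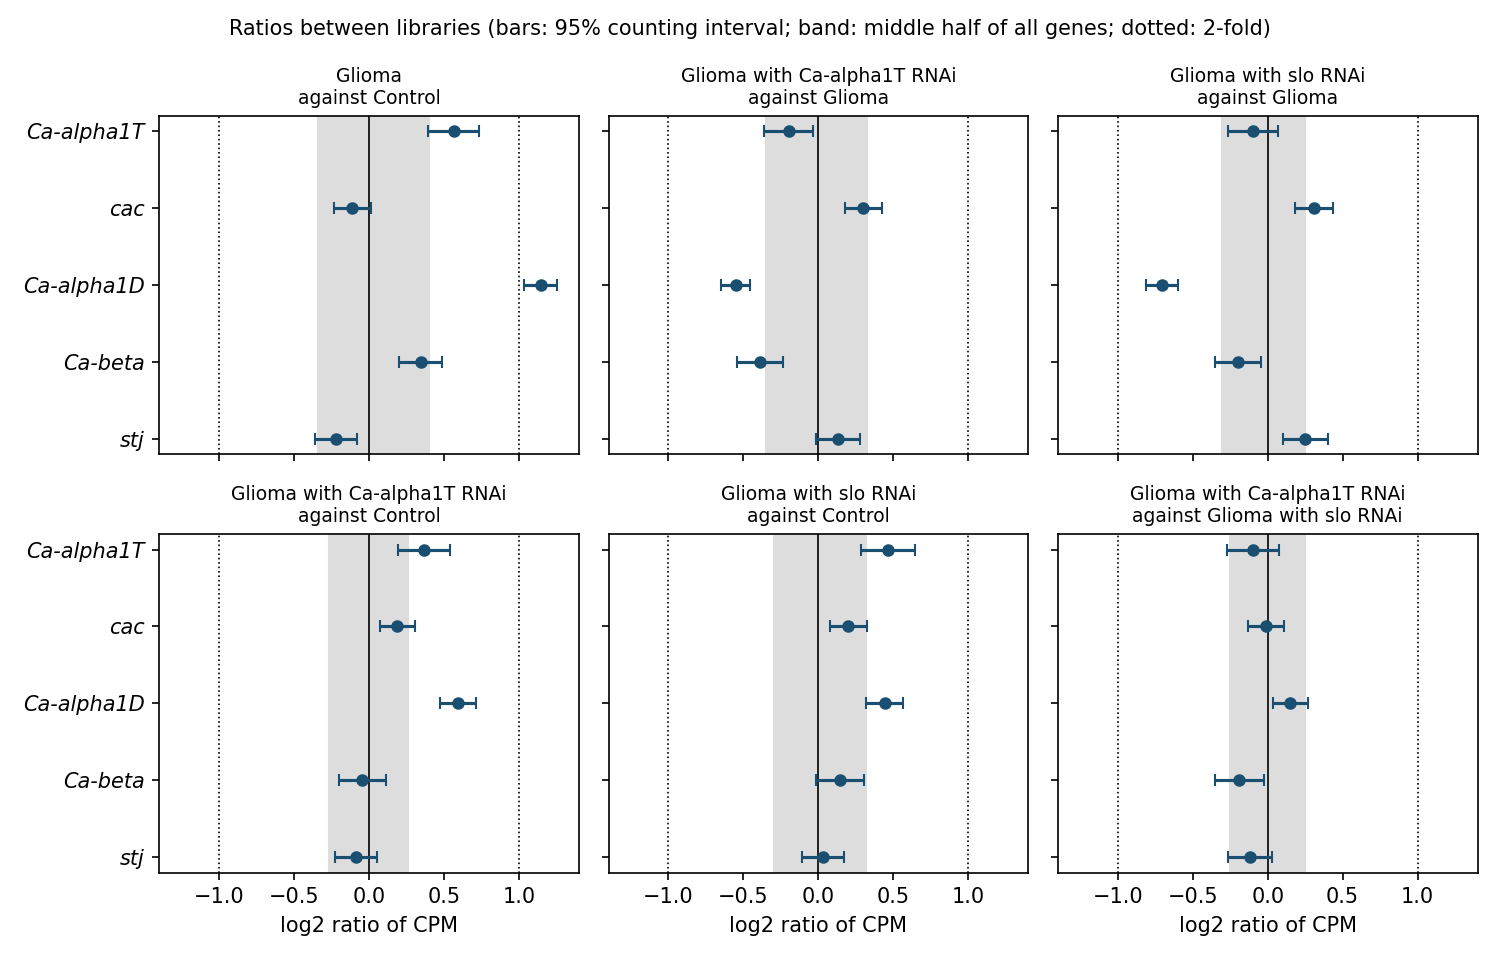
Log2 ratio of CPM (horizontal axis) of each subunit gene in the 6 pairs of libraries, with 95% counting intervals, a grey band for the middle 50% of all detected genes and dotted lines at 2-fold. Ca-alpha1D in Glioma against Control, at 1.15, is the 1 point past a 2-fold line, and Ca-alpha1D lies below the band, at −0.55 and −0.70, in both RNAi libraries against Glioma.

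Read as a set, 1 of the 5 genes was called higher and none lower in Glioma against Control, where 15.9% of all detected genes were called in either direction. None was called in either RNAi library against Glioma. There 11.8% of genes were called for Ca-alpha1T RNAi (4.93% higher and 6.88% lower) and 11.2% for slo RNAi (4.43% higher and 6.8% lower). None was called against Control, where the shares were 10.2% for Ca-alpha1T RNAi (6.05% higher and 4.15% lower) and 13.3% for slo RNAi (7.31% higher and 5.95% lower). None was called between the RNAi libraries either, beside 10.4% of all genes (5.66% higher and 4.74% lower). With so few genes and shares of this size, counts of 0 or 1 are near the background. The median log2 ratio of the 5 was 0.34 in Glioma against Control, beside 0.00 for all genes. It was −0.20 and −0.10 in the RNAi libraries against Glioma, beside −0.010 and −0.012 for all genes. An interval clear of equality was found for 4 of 5 genes in Glioma against Control, beside 72.9% of all genes, and for 4 of 5 in each RNAi library against Glioma, beside 70.5% for Ca-alpha1T RNAi and 65.8% for slo RNAi. Against Control it was 3 of 5 in each, beside 65% and 67.4%, and between the RNAi libraries 2 of 5, beside 61.4%. These counts too are near the background.

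The range over the 4 libraries, highest over lowest, placed the genes differently. For Ca-alpha1D it was 2.21-fold, and 90.1% of the 2014 genes within 0.5 log2 units of its mean level had a smaller range. It was 1.48-fold for Ca-alpha1T, 1.31-fold for Ca-beta, 1.24-fold for cac and 1.19-fold for stj, and 17.1% of the genes near stj in level had a smaller range than stj.

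The ratio of one subunit gene to another within a library does not depend on how libraries are scaled. Counts of cac per count of Ca-alpha1D were 1.16 in Control, 0.484 in Glioma, 0.873 in the library labelled Ca-alpha1T RNAi and 0.978 with slo RNAi. Control held more cac than Ca-alpha1D counts and all 3 glioma libraries fewer. The ratio was lower in Glioma than in Control by −1.26 log2 units (−1.42 to −1.09). In the RNAi libraries it was higher than in Glioma by 0.85 (0.69 to 1.01) and 1.01 (0.85 to 1.18), and lower than in Control by −0.41 (−0.57 to −0.24) and −0.24 (−0.42 to −0.07). On the authors' TPM the Glioma and Control libraries differed more, by −1.43.

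Between the main pairs of libraries some other ratios differed less. Counts of cac per count of stj were 1.25, 1.35, 1.52 and 1.41 in Control, Glioma, Ca-alpha1T RNAi and slo RNAi. This ratio had intervals that included equality in each of the 3 main pairs, at 0.11 (−0.08 to 0.30) for Glioma against Control, 0.17 (−0.03 to 0.36) for Ca-alpha1T RNAi against Glioma and 0.06 (−0.14 to 0.26) for slo RNAi against Glioma. Ca-alpha1T relative to Ca-beta behaved likewise in those pairs, at 0.22 (−0.0037 to 0.44), 0.19 (−0.03 to 0.42) and 0.10 (−0.13 to 0.33). Against Control some of these intervals excluded equality. In the library labelled Ca-alpha1T RNAi cac relative to stj was higher than in Control by 0.27 (0.09 to 0.46) and Ca-alpha1T relative to Ca-beta by 0.41 (0.18 to 0.65). With slo RNAi they were higher by 0.17 (−0.02 to 0.35) and 0.32 (0.08 to 0.56). Ca-alpha1T relative to cac was higher in Glioma than in Control, by 0.68 (0.47 to 0.89), and lower in the library labelled Ca-alpha1T RNAi than in Glioma, by −0.50 (−0.70 to −0.29). The slo RNAi library, without the Ca-alpha1T construct, gave −0.41 (−0.62 to −0.20) for the same ratio, and the RNAi libraries differed by −0.09 (−0.30 to 0.13). Of the 10 pairs of subunit genes, 8 had an interval excluding equality in Glioma against Control and 3 between the RNAi libraries.

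Per length, on the authors' TPM, Ca-alpha1T was the lowest of the 5 in every library, at 1.34 in Control, 1.60 in Glioma, 1.95 in the library labelled Ca-alpha1T RNAi and 1.61 with slo RNAi. Its counting interval overlapped that of no other subunit gene. In Control stj was highest at 5.61 TPM, followed by Ca-beta at 4.54, cac at 4.34 and Ca-alpha1D at 4.21, and the intervals of these last 3 overlapped. In Glioma the order was Ca-alpha1D at 7.88, Ca-beta at 4.95, stj at 3.75 and cac at 3.01, with no overlap between neighbours. In the library labelled Ca-alpha1T RNAi Ca-alpha1D led at 7.29, and stj at 5.97, cac at 5.55 and Ca-beta at 5.52 followed with overlapping intervals. With slo RNAi stj at 4.87, Ca-alpha1D at 4.86, Ca-beta at 4.47 and cac at 4.15 were neighbours with overlapping intervals. All 5 genes lay below the median gene, and between 15.4% and 40.9% of genes had a lower TPM.

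Ca-alpha1D made up a larger share of the pore transcripts in Glioma. Of the summed TPM of the 3 pore genes it held 42.6% in Control, 63.1% in Glioma, 49.3% in the library labelled Ca-alpha1T RNAi and 45.8% with slo RNAi. For cac it was 43.8%, 24.1%, 37.5% and 39.1% in the same order. Ca-alpha1T held 13.6%, 12.8%, 13.2% and 15.1%, so its share in the library labelled as its knockdown lay within the range of the others. As a share of counts Ca-alpha1T held 18.3% (exact binomial interval 17.0% to 19.7%) of 3152 pore gene counts in that library and 18.1% (16.9% to 19.4%) of 3709 in Glioma, a difference not detectable at this depth. The size of the shares depends on the length used: with counts divided by the longest coding length Ca-alpha1D held 34.5%, 52.7%, 40.4% and 37.4%, again most in Glioma. TPM of stj per TPM of cac was 1.29, 1.24, 1.08 and 1.17, and Ca-beta per cac and Ca-alpha1D together was 0.531, 0.454, 0.430 and 0.496.

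**Figure D3:**
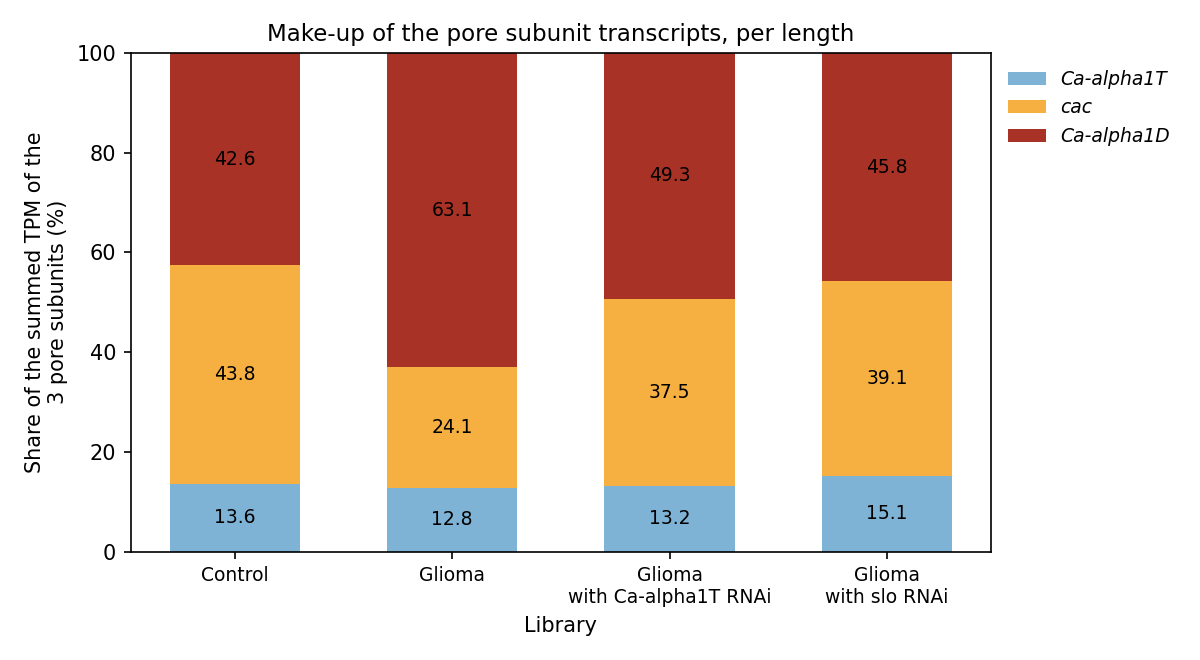
Share of each pore subunit gene in the summed TPM of the 3 pore genes (percent, vertical axis), with 1 stacked bar per library. Ca-alpha1D takes 63.1% in Glioma and between 42.6% and 49.3% in the other libraries, while Ca-alpha1T stays between 12.8% and 15.1%.

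Markers of tissues in the head differed beside these values. The 12 body wall muscle markers summed to 16567 CPM in Control, 57040 in Glioma, 22381 in the library labelled Ca-alpha1T RNAi and 35097 with slo RNAi. All 12 were called higher in Glioma against Control, where 10.1% of all detected genes were. Against Glioma 9 were called lower in the library labelled Ca-alpha1T RNAi and 2 with slo RNAi, where 6.88% and 6.8% of genes were. Ca-alpha1D shared the lowest library, Control, and the highest, Glioma, with that sum, but of the RNAi libraries the muscle sum was higher with slo RNAi and Ca-alpha1D was not. Ca-alpha1D per 1000 CPM of muscle markers was 1.58, 1.02, 1.77 and 1.01. The part of muscle in the Ca-alpha1D values was not tested.

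The 12 neuron markers summed to 597 CPM in Control, 425 in Glioma, 554 in the library labelled Ca-alpha1T RNAi and 576 with slo RNAi, lowest in Glioma as cac and stj were. In Glioma against Control 1 of them was called lower and none higher, where 5.81% of all detected genes were called lower and 10.1% higher. Their median log2 ratio was −0.50. Per 1000 CPM of neuron markers, stj stood at 40.4, 48.8, 41.1 and 42.9 and cac at 50.7, 66.0, 62.3 and 60.4, so both were highest in Glioma on that scale. Ca-alpha1D stood at 43.8, 136, 71.4 and 61.8. The order for cac and stj depends on the markers summed. From Control to Glioma elav went from 116 to 65.3 CPM and fne from 111 to 46.1, while nSyb stood at 62.4 and 62.1. Of the 12 markers 3 lay above 0 in Glioma against Control. The 10 glia markers summed to 1010, 1259, 1090 and 1069 CPM, with 3 called higher in Glioma against Control, beside the same 10.1% of all genes. The glia sum ranked the libraries in the same order as Ca-alpha1D did. Per 1000 CPM of glia markers Ca-alpha1T was 12.8, 15.1, 15.3 and 16.6, lowest in Control. On that scale Ca-alpha1D was 25.9, 46.0, 36.3 and 33.3, highest in Glioma. These orders depend on the markers summed. Gs2 alone held 631, 505, 450 and 383 CPM of the sum, while repo stood at 16.7, 36.6, 40.9 and 38.2 CPM. In Glioma against Control 7 of the 10 markers lay above 0, and Gs2 did not. All markers of these lists had at least 10 counts in at least 1 library, and the part of neurons and glia in the subunit values was not tested.

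**Figure D4:**
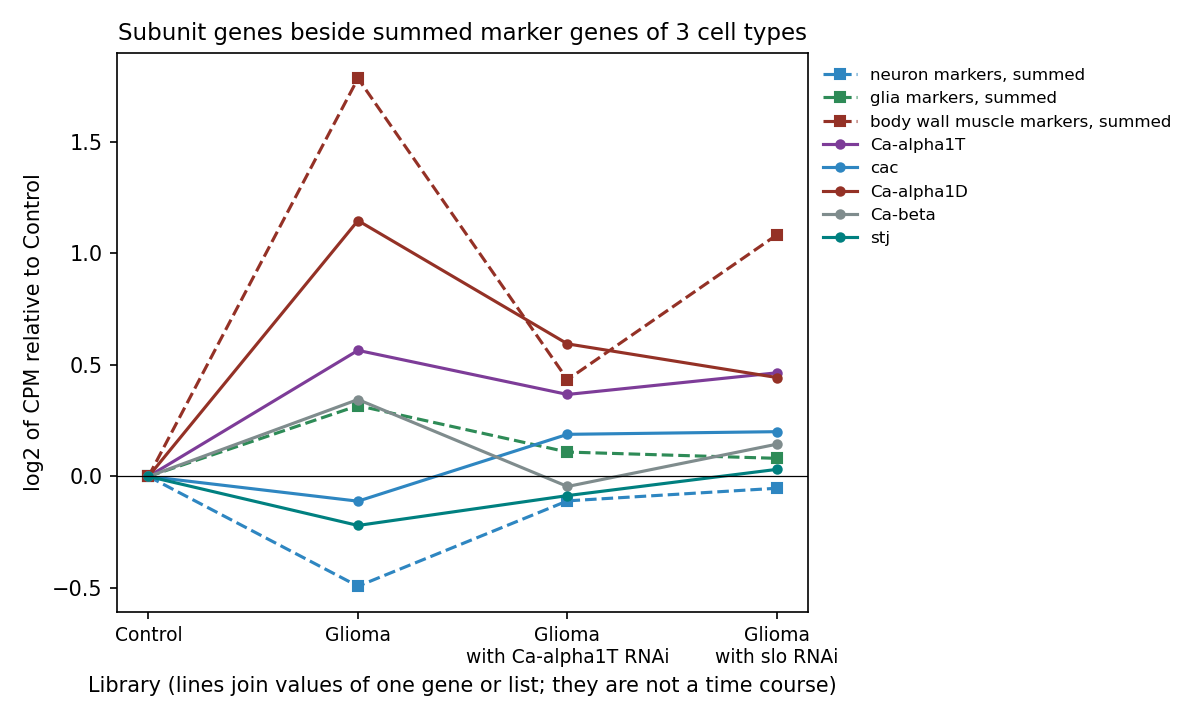
Log2 of CPM relative to Control (vertical axis) for the 5 subunit genes (solid lines) and the summed neuron, glia and body wall muscle markers (dashed lines) in the 4 libraries. Muscle and glia markers, at 57040 and 1259 CPM, and Ca-alpha1D, at 57.9 CPM, peak in Glioma, as do Ca-alpha1T and Ca-beta. Neuron markers, cac and stj have their lowest values there.

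Genes with the most similar pattern were sought among 5639 genes with at least 100 counts in every library, leaving out bare CG and CR names, by the Euclidean distance between log2 CPM values centred over the 4 libraries. For Ca-alpha1D they were Obp56c, an odorant-binding protein gene, at a distance of 0.054 log2 units, Muc96D, a mucin gene, at 0.091, and GluRIIA, a subunit gene of the muscle glutamate receptor, at 0.11. GluRIIA stood at 13.4 CPM in Control, 27.1 in Glioma, 19.0 in the library labelled Ca-alpha1T RNAi and 16.6 with slo RNAi. In the same order Obp56c stood at 5.12, 11.1, 7.45 and 7.03 CPM and Muc96D at 1656, 3665, 2685 and 2245. Within a distance of 0.2 lay 15 genes for Ca-alpha1D, 156 for Ca-alpha1T, 437 for Ca-beta, 511 for cac and 718 for stj. Distances depend on how far a gene itself ranges: a gene at 1 level in all libraries would lie at 0.19 from stj, 0.26 from cac, 0.30 from Ca-beta, 0.43 from Ca-alpha1T and 0.82 from Ca-alpha1D. The closest to Ca-alpha1T were SLIRP2 at 0.050, RpL24-like at 0.060 and nemy at 0.060. Those of cac were RhoGAP93B at 0.014, Atg4b at 0.015 and Alg14 at 0.027. Nearest to Ca-beta were RpL6 at 0.035, FeCH at 0.036 and eIF3h at 0.036, and to stj Bap170 at 0.021, rig at 0.021 and Tpc1 at 0.028. Among the subunit genes themselves cac and stj were closest, at 0.20, which is no closer than a flat gene lies to stj, and Ca-alpha1D and stj farthest, at 0.99.

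Further subunit genes differed from one another too. The alpha-2-delta gene stol, listed in the table as CG4587, had 367 counts in Control, 153 in Glioma, 332 in the library labelled Ca-alpha1T RNAi and 279 with slo RNAi, or 9.34, 4.33, 9.55 and 9.25 CPM. Glioma stood alone, with a log2 ratio of −1.11 (−1.39 to −0.83) against Control, called lower where 5.81% of genes were. Both RNAi libraries were called higher than Glioma, at 1.14 (0.86 to 1.43) and 1.09 (0.81 to 1.39), where 4.93% and 4.43% of genes were. Ca-Ma2d, annotated in the table as a muscle-specific alpha-2-delta subunit, went the other way in Glioma, at 16.5, 29.2, 26.1 and 19.3 CPM, a log2 ratio of 0.82 (0.67 to 0.96) against Control. Against Glioma it stood at −0.16 (−0.29 to −0.03) in the library labelled Ca-alpha1T RNAi, which total counts would turn positive, and −0.60 (−0.75 to −0.45) with slo RNAi. The list held 2 more genes, neither called in the 3 main pairs: stg1, with 28 to 38 counts, and CG16868, for which the table gives no role. Its median was 0.10 in Glioma against Control and 0.05 and 0.10 in the RNAi libraries against Glioma.

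Of the 3 Rgk genes, small G proteins whose mammalian relatives inhibit these channels, none was called in the main pairs. In Glioma against Control their median was −0.40, with Rgk3 at −0.84 (−0.99 to −0.69) and Rgk1 at −0.40 (−0.57 to −0.22). Against Glioma their medians were 0.08 in the library labelled Ca-alpha1T RNAi and −0.43 with slo RNAi. Outside the main pairs, in slo RNAi against Control, Rgk3 was called lower at −1.27 (−1.45 to −1.10), where 5.95% of all detected genes were. It went from 28.4 CPM in Control to 11.8, and the median of the 3 was −0.57. None of 6 other genes of 4-domain channels and their partners was called either. Their medians were 0.09, 0.08 and 0.17 in the 3 main pairs. In Glioma against Control unc80, a partner of the sodium leak channel, stood at 0.64 (0.49 to 0.80). The gene of that channel, na, went the other way, at −0.59 (−0.76 to −0.42), and unc79 stood at 0.0021. NaCP60E, a cation channel gene, stood at 0.68 (0.58 to 0.79) in Ca-alpha1T RNAi against Glioma.

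The 14 presynaptic genes whose products work beside cac included none that was called. In Glioma against Control 5 of 14 lay above 0 with a median of −0.34, and Syt1, the calcium sensor of vesicle fusion, stood at −0.63 (−0.72 to −0.55). Against Glioma 13 of 14 lay above 0 in the library labelled Ca-alpha1T RNAi, median 0.34, and 14 of 14 with slo RNAi, median 0.25. In slo RNAi against Glioma Syt1 stood at 0.60 (0.51 to 0.69) and cpx, a clamp of vesicle fusion, at 0.59 (0.51 to 0.67). The list shares 5 genes with the neuron markers.

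The 6 genes of calcium stores and store-operated entry were RyR, Itpr, SERCA, jp, Stim and the Orai gene. In Glioma against Control 3 of 6 were called higher, where 10.1% of all detected genes were. RyR, the calcium release channel of the store, stood at 1.77 (1.68 to 1.85) and SERCA, the calcium pump of the store, at 1.66 (1.64 to 1.68). Also called was jp, a junctophilin gene, at 1.25 (1.20 to 1.31). The other genes lay below 0, with Itpr at −0.23, Stim at −0.09 and the Orai gene at −0.51. The list median of 0.58, beside 0.00 for all genes, lay between these and the called genes and describes neither. RyR and SERCA were called lower in the library labelled Ca-alpha1T RNAi than in Glioma, at −1.16 (−1.24 to −1.08) and −1.32 (−1.33 to −1.30), where 6.88% of genes were, and jp stood at −0.62. With slo RNAi none was called, and RyR stood at −0.80 (−0.88 to −0.73). The list's medians against Glioma were −0.25 and −0.19, the first of which total counts would turn positive. RyR and SERCA, like the muscle markers, were highest in Glioma, and the part of muscle in these values was not tested. None of 13 calcium effector genes was called, with medians of −0.05, 0.20 and 0.14 in the 3 main pairs. The calcineurin gene CanA1 came nearest in Glioma against Control, at 0.99 (0.86 to 1.12), and stood at −0.76 (−0.89 to −0.64) and −0.65 (−0.78 to −0.52) in the RNAi libraries against Glioma.

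The authors' deposited table gives fold changes for the same libraries. For Ca-alpha1D it lists 2.23-fold higher in Glioma than in Control, and 1.46-fold and 1.64-fold lower than Glioma in the libraries labelled Ca-alpha1T RNAi and slo RNAi. In the authors' deposited table Ca-alpha1T is 1.14-fold lower in the library labelled as its knockdown than in Glioma and 1.08-fold lower with slo RNAi. These come from the same single libraries and are no independent check.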

How the data were processed

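Per the file headers, the deposited table gives each gene's read count in the 4 libraries. FPKM and TPM, both scaled per length by the authors, stand beside them per the file headers. The deposited table also holds the authors' fold changes, p-values and log2 values. The authors' fold changes are linear and signed, a score that is negative where the first library is lower. The log2 values and p-values were not used. Tools listed in the submitters' processing notes, with no role or order, are StringTie 2.1.3b, HISAT2 2.1.0, Trimmomatic 0.38, FastQC 0.11.7 and edgeR, and the build is dm6. Every listed gene has at least 1 count in every library.

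Counts were scaled with TMM (edgeR 4.0.16, R 4.3.3; factors 1.06, 0.909, 1.10 and 0.939 for Control, Glioma, Ca-alpha1T RNAi and slo RNAi), and log2 ratios used a prior count of 0.5. Ratio intervals were exact conditional binomial intervals, and those between genes were exact conditional odds ratio intervals (Python 3.11.15, scipy 1.17.1). PCR copies are not independent molecules, so intervals may be too narrow. The calling rule was tested on simulated data. The simulation drew counting error only, as the intervals assume, with 4-fold changes and no TMM factors. It cannot show how the rule fares near 2-fold or with variation between animals. All 4 samples carry the same batch label.

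Positions came from the Ensembl 115 annotation in dm6 coordinates, with Ca-beta matched by symbol. The members and the 13 lists were chosen with earlier results of these data known. The lists hold 108 entries, matched to 102 genes. Named are the 5 subunit genes, checks of the labels, overlapping genes and 3 genes nearest in pattern to each. List genes named were mostly picked from the 3 with the largest ratios in a main pair, and are not always the largest. Alternatives were DESeq2 1.42.0 size factors, total counts, other filters, 1.5-fold, a prior count of 5, and FPKM or TPM with a pseudocount of 1.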

Additional observations from a re-analysis of the deposited data

How the results depend on the processing

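No paired analysis was possible because each group has 1 library, and for the same reason no library could be left out. The single call, Ca-alpha1D higher in Glioma than in Control, was lost on total counts, FPKM and TPM (0 genes called in place of 1). With a 1.5-fold rule Ca-alpha1D was also called lower with slo RNAi than in Glioma and higher in Ca-alpha1T RNAi than in Control (1 gene in place of 0 in each). That rule called 1404 of 11389 detected genes lower in the first of these pairs and 1273 of 11416 higher in the second, so these counts are near the background. Of 240 ratios of a subunit gene under an alternative, 63 left their counting interval. Relative to the median of all genes, Ca-beta in Ca-alpha1T RNAi against Control and cac between the RNAi libraries changed sign, each in 2 of 8 alternatives; the cause was not tested.

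The median of the 5 genes on total counts, FPKM and TPM was 0.12, 0.14 and 0.10 in Glioma against Control, 0.078, 0.050 and 0.18 in Ca-alpha1T RNAi against Glioma, 0.022, −0.020 and −0.018 in slo RNAi against Control, and 0.13, 0.14 and 0.25 in Ca-alpha1T RNAi against slo RNAi (main values 0.34, −0.20, 0.20 and −0.10). On TPM, cac relative to Ca-alpha1D was −1.43 and cac relative to Ca-beta −0.65 (−0.46 on counts) in Glioma against Control. With counts divided by the longest coding length, cac held 51.2%, 32.7%, 45.3% and 46.9% of the pore genes and Ca-alpha1D 34.5%, 52.7%, 40.4% and 37.4% in Control, Glioma, Ca-alpha1T RNAi and slo RNAi, and Ca-alpha1T 14.6% in Glioma.

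Over all genes the main calls were 1152 higher and 663 lower in Glioma against Control, 562 and 785 in Ca-alpha1T RNAi against Glioma, 504 and 775 in slo RNAi against Glioma, 691 and 474 in Ca-alpha1T RNAi against Control, 834 and 678 in slo RNAi against Control, and 645 and 540 between the RNAi libraries. In that order the 1.5-fold rule gave 2004 and 1449, 1308 and 1563, 1007 and 1404, 1273 and 965, 1521 and 1330, and 1114 and 1031; FPKM gave 496 and 514, 427 and 270, 209 and 385, 338 and 227, 252 and 501, and 473 and 166; TPM gave 510 and 721, 934 and 230, 281 and 405, 521 and 219, 321 and 574, and 698 and 173. Total counts gave 883 and 1024 in Glioma against Control, 46.3% higher in place of 63.5%, and 975 and 472 in Ca-alpha1T RNAi against Glioma, 67.4% in place of 41.7%. At least 50 counts left 315 higher in slo RNAi against Glioma.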

Other observations

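Markers of other head tissues also differed between the libraries. The 9 salivary gland markers summed to 23187 CPM in Control, 2603 in Glioma, 1526 in the Ca-alpha1T RNAi library and 13969 in the slo RNAi library. In Glioma against Control 6 of the 9 were called lower and 1 higher, where 5.81% of all detected genes were called lower and 10.1% higher. The 6 fat body markers summed to 14989, 7969, 13223 and 18569 CPM, with 3 called lower and 1 higher in Glioma against Control. The 5 hemocyte markers summed to 66.2, 93.3, 104 and 73.9 CPM, with 1 called higher in Glioma against Control. The 7 eye disc markers summed to 234, 167, 229 and 210 CPM, lowest in Glioma, and none was called in the main pairs.

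The authors' per-length values carry a conversion that differs between libraries for some subunit genes. FPKM per count, set against the median gene of each library, stood for Ca-beta at −1.46 log2 units in Control, −1.37 in Glioma, −1.30 for Ca-alpha1T RNAi and −1.42 for slo RNAi, a range of 0.16. Of 8963 genes with at least 100 counts in every library, 95.1% had a smaller range, and the median range was 0.0075. For cac the range was 0.10, for Ca-alpha1D 0.098, for stj 0.058 and for Ca-alpha1T 0.0064.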
